A study of Oryza sativa with 9 samples.

Results

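Rice seeds of the complemented line, in which a wild type copy of OsTudor-SN was added to the mutant EM1084, were compared with seeds of EM1084 itself. Endoplasmic reticulum (ER) folding and ER stress genes were lower in the complemented line. Most storage protein genes were higher on the 2 scales used below, but fewer were so under quantile normalization. Of 12 tested small RNA pathway genes, 3 Argonaute and Dicer genes were more than 8-fold lower in mean RPKM as deposited, and 8 were not called on both scales. The complemented line is labelled pHL8042/EM1084 and is described as a transgenic of EM1084 carrying the wild type OsTSN gene. EM1084 carries the change E503K in Tudor-SN, a change that the complemented line shares. Wild type (WT) seeds, which carry neither the change nor the transgene, are given as values only. Where a line is set against WT, the values are RPKM as deposited, without scaling and without a test. Each genotype had 3 biological repeats, and the seeds, dehulled, were 10 to 14 days past flowering; plants were kept in chambers at 27 °C under a 12 h day. Values are RPKM, in which the reads of a locus are divided by its length and by the library's mapped total. The comparison covers the loci with at least 1 RPKM in at least 3 of the 6 libraries of the complemented line and EM1084, which were 15212 of the 31263 loci in the table (48.7%). The third-highest of the 6 values was 1.00017 RPKM for the locus just inside this limit and 0.99962 RPKM for the locus just outside it.

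Tudor-SN is an RNA-binding protein with staphylococcal nuclease repeats and a Tudor domain. In rice endosperm it is known for its part in bringing storage protein mRNAs to the ER, where glutelins and prolamins are made. Newly made storage proteins are folded in the ER by chaperones such as BiP and by protein disulfide isomerases. When unfolded protein builds up, the sensor IRE1 splices the mRNA of the transcription factor bZIP50, and chaperone genes are switched on; this is the unfolded protein response.

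Mapped reads, derived from the steps of the RPKM values, numbered between 17022681 and 18449248 in the complemented libraries, between 12805472 and 15630870 in the EM1084 libraries and between 5778627 and 10551055 in the WT libraries. A single read per kilobase was worth between 0.0542 and 0.0587 RPKM in the complemented libraries, between 0.0640 and 0.0781 RPKM in EM1084 and between 0.0948 and 0.173 RPKM in WT. Storage protein loci, which mark filling endosperm, took at least 33.7% of the reads in listed loci of every library. RBCS encodes the small subunit of the photosynthetic enzyme Rubisco, and only its locus LOC_Os12g17600 had a matching name. That locus had 0.954 to 1.87 RPKM in the complemented line, 0.511 to 0.807 RPKM in EM1084 and 0 to 0.186 RPKM in WT. Other RBCS loci are not reported here. Seeds were sequenced whole, so fewer cells of a type and less RNA per cell cannot be told apart. The labels name 1 construct and do not say whether the repeats came from separate transgenic plants, and p-values measure the spread between these libraries.

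Transcripts of OsTudor-SN (LOC_Os02g32350, chromosome 2, 19098854 to 19105533 in the table's coordinates) stood at 348, 367 and 389 RPKM in the complemented line, against 206, 212 and 221 RPKM in EM1084 and 91.1, 97.6 and 88.4 RPKM in WT. All 3 complemented libraries lay above all EM1084 libraries. The log2 fold change on log2(RPKM + 1) was 0.78 (SE 0.08, adjusted p = 1.0e-05), and 1.21 (SE 0.07, adjusted p = 2.5e-07) when libraries were first scaled by the median of ratios, which sets the typical locus equal between libraries. Reads of the transgene and of the resident E503K copy are counted at the same locus and cannot be told apart in this table.

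Among the most abundant loci more were higher than lower in the complemented line, and among loci of moderate level more were lower than higher. On RPKM as deposited, 1651 loci (10.9% of those tested) were higher and 7529 (49.5%) were lower at an adjusted p under 0.05, and the median log2 fold change over all loci was -0.35. Median-of-ratios scaling brought that median to 0.00, with 3634 loci higher (23.9%) and 3610 lower (23.7%). The scaling added 0.37 to the log2 fold change of the median locus and 0.43 to that of loci averaging over 1000 RPKM. All 1651 loci called higher as deposited were called higher under scaling too (10.9% of those tested), and 3610 loci were called lower both ways (23.7%). Another 3915 loci were lower as deposited and passed in neither direction under scaling, 1979 were higher under scaling alone, and 4 were called in opposite directions. A locus is called higher or lower below only where both scales gave that call, unless a scale is named, and counts for a gene list stand against the 10.9% called higher and 23.7% called lower among all tested loci.

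Changes beyond 2-fold on both scales were found at 497 higher and 856 lower loci, changes beyond 4-fold at 91 and 178, and changes beyond 8-fold at 18 and 40. In 1601 of the 1651 higher loci and in 3610 of the 3610 lower loci, the RPKM values of the 3 complemented and the 3 EM1084 libraries did not overlap. Among all 15212 tested loci, called or not, 1895 were apart in this way with the complemented line higher and 8169 with it lower. The calls rest on the same values, so this separation adds no further support to them. Direction varied with the expression level. Among the 50 loci averaging over 1000 RPKM, 25 were higher and 5 lower (10.0%). Among the 614 loci of 50 to 100 RPKM, 75 were higher (12.2%) and 239 lower (38.9%). Among the 2943 loci under 2 RPKM, 311 were higher (10.6%) and 460 lower (15.6%). Under scaling alone, the counts were 170 higher and 239 lower at 50 to 100 RPKM, and 537 and 460 under 2 RPKM. At 2 to 5 RPKM they were 863 higher and 691 lower, and at 5 to 10 RPKM 705 and 710. The excess of lower loci under 5 RPKM was thus not seen under scaling alone, and at 5 to 10 RPKM the counts were nearly equal. Across the 12 chromosomes, the share of loci called lower ran between 20.8% on chromosome 12 and 26.3% on chromosome 3, and the share called higher between 9.08% on chromosome 2 and 13.4% on chromosome 10.

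**Figure D1:**
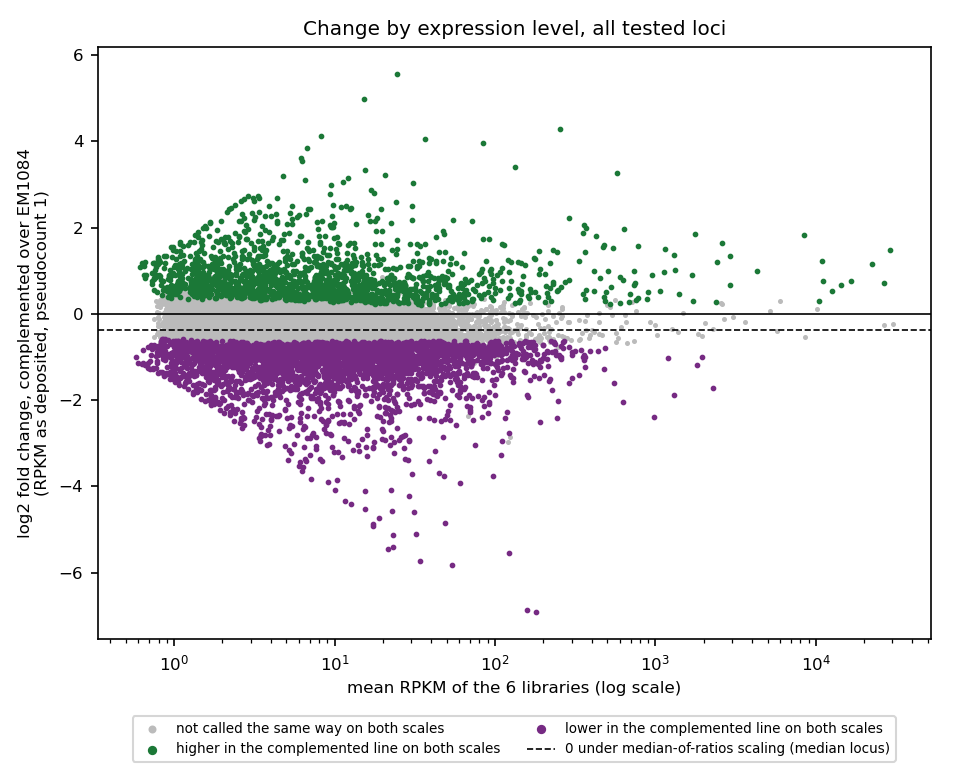
Log2 fold change of each of the 15212 tested loci on RPKM as deposited (vertical axis, complemented over EM1084) against its mean RPKM over the 6 libraries (horizontal log axis). Green points were higher and purple points lower in the complemented line on both scales, and the dashed line marks the 0 of median-of-ratios scaling, 0.37 below the solid 0 line. Of the 50 loci over 1000 RPKM, 31 lie above the solid line, whereas purple points outnumber green ones at the levels below. Under scaling alone, more loci under 2 RPKM were higher (537) than lower (460), and so were more of those at 2 to 5 RPKM (863 against 691).

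Storage protein transcripts took a larger share of the reads in the complemented line than in EM1084. Glutelin, prolamin, globulin and albumin loci together took 47.5% ± 2.43 of the reads in listed loci in the complemented line, 33.9% ± 0.311 in EM1084 and 59.0% ± 2.36 in WT (SD, n = 3). The 3 complemented libraries all lay above the EM1084 libraries (two-sided exact permutation p = 0.1, the smallest that 3 against 3 allows). By class, glutelins took 36.6% ± 1.72 in the complemented line and 27.2% ± 0.219 in EM1084, prolamins 8.38% ± 0.827 and 5.25% ± 0.437, and globulins with albumins 2.56% ± 0.115 and 1.47% ± 0.126 in the same lines (exact permutation p = 0.1 each). Many storage genes are near copies of each other, so the division of reads among them in the authors' counting is uncertain.

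Of 25 prolamin loci, 17 were higher, 0 lower and 8 not called on both scales, with a median log2 fold change of 0.73 as deposited and 1.16 under scaling, beside -0.35 and 0.00 over all tested loci. Under quantile normalization 14 were higher and 2 lower. Prolamins are the alcohol-soluble proteins stored inside ER-derived bodies. LOC_Os05g26620 (chromosome 5, 15464454 to 15465082) had 1222, 1041 and 885 RPKM in the complemented line, against 111, 110 and 101 RPKM in EM1084. LOC_Os05g26240 (15266310 to 15266929), a scarcer prolamin of the same chromosome, had 51.0, 58.6 and 57.7 RPKM in the complemented line, against 5.29, 5.74 and 6.81 RPKM in EM1084. Both loci were more than 9-fold higher, by 9.77-fold and 9.38-fold in mean RPKM (log2 fold changes 3.27 and 3.03, SE 0.11 each, adjusted p = 3.0e-09 and 3.7e-09), and stood at means of 1550 and 87.9 RPKM in WT. LOC_Os05g26440 was above WT in EM1084 already and lay further above it in the complemented line. It had 637, 669 and 683 RPKM in the complemented line, against 202, 185 and 182 RPKM in EM1084 (log2 fold change 1.80, SE 0.08, adjusted p = 1.6e-08). The WT libraries had 64.9, 54.4 and 48.0 RPKM at this locus. On chromosome 7, LOC_Os07g10570 reached 11972, 13328 and 13963 RPKM in the complemented line, against 3621, 3627 and 3764 RPKM in EM1084. The most abundant prolamin locus, LOC_Os05g26386, varied more between complemented libraries, at 42722, 30934 and 25571 RPKM, against 19866, 22384 and 17392 RPKM in EM1084 (log2 fold change 0.71, SE 0.18, adjusted p = 0.0071). Its groups did not overlap, but its call was lost in a voom fit on derived reads and under quantile normalization. LOC_Os05g26386 (15338155 to 15338822) covers nearly the same bases as another listed locus, LOC_Os05g26377 (15338152 to 15338822), which had 49.1, 25.4 and 50.9 RPKM in the complemented line, 38.8, 21.7 and 26.8 RPKM in EM1084 and 20401, 23359 and 1694 RPKM in WT. How reads were divided between these overlapping loci is not given, so the value of either alone is uncertain.

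Glutelins, the main storage proteins of rice, went both ways. Of 12 loci, 6 were higher, 1 lower and 5 not called, with medians of 0.18 as deposited and 0.61 under scaling, and under quantile normalization the direction of the family flipped to 2 higher and 6 lower. GluA1 had 45326, 41240 and 41788 RPKM in the complemented line, against 15278, 15644 and 15316 RPKM in EM1084 (log2 fold change 1.47, SE 0.07, adjusted p = 3.0e-08). Its relative GluA2 was 2.24-fold higher in mean RPKM. GluA3, of the same subfamily, had 25760, 24797 and 22561 RPKM in the complemented line, against 29366, 29167 and 28538 RPKM in EM1084, lower as deposited (adjusted p = 0.013), a call lost without EM1084 1 (adjusted p = 0.056), and not called under scaling. The B-type locus LOC_Os02g14600 fell to 1157, 1006 and 1033 RPKM in the complemented line, against 3419, 3353 and 3709 RPKM in EM1084 (log2 fold change -1.71, SE 0.09, adjusted p = 3.2e-08). VPE1, the vacuolar enzyme that cleaves proglutelin into its mature subunits, had 213, 257 and 275 RPKM in the complemented line, against 97.6, 94.2 and 109 RPKM in EM1084 (log2 fold change 1.29, SE 0.11, adjusted p = 1.7e-06). It was the 1 member higher among 4 tested glutelin trafficking genes, of which 0 were lower and the Rab regulators VPS9A, GPA3 and RAB5A were not called on both scales.

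Globulins and seed albumins were higher at 7 of 9 loci and lower at 0, with medians of 0.89 as deposited and 1.32 under scaling. Under quantile normalization 6 were higher and 0 lower. RAG2, a seed albumin gene, had 3339, 3346 and 3449 RPKM in the complemented line, against 1368, 1623 and 1452 RPKM in EM1084 and 10336, 9786 and 9005 RPKM in WT. LOC_Os07g11510, in the same chromosome 7 cluster, was 2.55-fold higher at 3897, 4084 and 4629 RPKM, against 1510, 1786 and 1647 RPKM in EM1084 and 11259, 10997 and 10487 RPKM in WT. Both stayed under the WT values, but not every member of the list did. RAG1, in the same cluster, averaged 553 RPKM in the complemented line and 276 RPKM in EM1084, both above the WT mean of 4.53 RPKM. The abundant alpha-globulin averaged 14056 RPKM in the complemented line, 8251 RPKM in EM1084 and 13305 RPKM in WT. Its complemented and WT libraries overlapped. Among transcription factors of the seed, 5 of 10 tested were higher and 1 was lower. The endosperm regulator NAC20 had 639, 738 and 724 RPKM in the complemented line, against 215, 223 and 286 RPKM in EM1084 and 171, 172 and 159 RPKM in WT. MADS7, a MADS-box factor, was 2.89-fold higher, while NF-YB1, a CCAAT-binding subunit of the aleurone and endosperm, was lower at 30.4, 30.3 and 36.4 RPKM, against 56.5, 59.7 and 58.4 RPKM in EM1084.

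**Figure D2:**
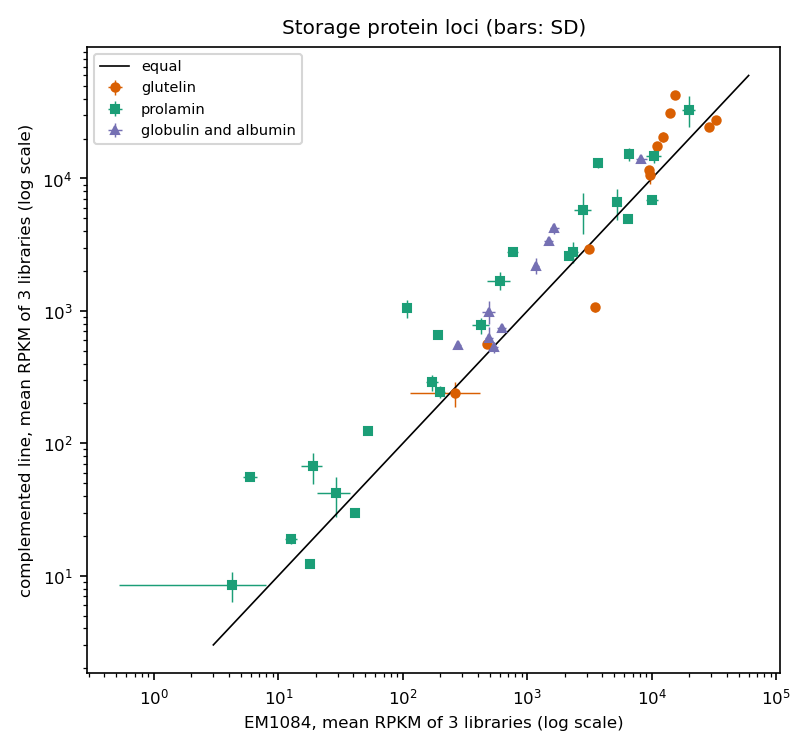
Mean RPKM of each storage protein locus in the complemented line (vertical log axis) against EM1084 (horizontal log axis), with bars for the SD over 3 libraries and a line of equality. Prolamin loci such as LOC_Os05g26620 and LOC_Os05g26240 lie farthest above the line, and the glutelin locus LOC_Os02g14600 lies farthest below it.

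Every tested gene of ER protein folding was lower in the complemented line. Of 15 loci, 13 were tested and 13 were lower, with a median log2 fold change of -1.36 as deposited and -0.94 under scaling, and the 13 were lower under quantile normalization as well. The list took 0.309% ± 0.0234 of the reads in listed loci in the complemented line, 1.15% ± 0.0734 in EM1084 and 0.681% ± 0.0333 in WT (SD, n = 3, exact permutation p = 0.1 between the complemented line and EM1084). The 2 loci of the list not tested, BiP2 and PDIL1-2, stayed under the level limit. Further ER folding loci had no matching name and are not in the list.

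BiP1, the main HSP70 chaperone of the ER lumen, had 280, 327 and 331 RPKM in the complemented line, against 1577, 1568 and 1765 RPKM in EM1084 and 1916, 1939 and 1745 RPKM in WT. The complemented line stood apart from both other genotypes at this gene. Its log2 fold change against EM1084 was -2.39 (SE 0.09, adjusted p = 5.7e-09) as deposited and -1.95 (SE 0.07, adjusted p = 2.7e-08) under scaling. The lectin chaperone calnexin, CNX, had 65.6, 67.5 and 67.7 RPKM in the complemented line, against 245, 238 and 261 RPKM in EM1084 and 97.5, 108 and 95.1 RPKM in WT. Calreticulin, CRT1, the soluble partner of calnexin, was at 24.6, 31.5 and 27.5 RPKM in the complemented line, against 87.3, 79.7 and 102 RPKM in EM1084 and 31.7, 30.5 and 29.3 RPKM in WT. CNX was thus below each WT library, and CRT1 overlapped the WT values.

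The 9 tested disulfide isomerases, which form and rearrange disulfide bonds in folding proteins, fell by unequal amounts. PDIL1-1, needed in rice for the maturation of proglutelin, had 515, 569 and 600 RPKM in the complemented line, against 1958, 1956 and 2241 RPKM in EM1084 and 499, 500 and 461 RPKM in WT. PDIL2-2 was at 7.22, 9.43 and 10.00 RPKM in the complemented line, against 36.9, 31.4 and 35.5 RPKM in EM1084, and PDIL2-3, placed on the surface of prolamin bodies, was at 44.9, 45.3 and 52.0 RPKM, against 141, 153 and 153 RPKM. The log2 fold changes were -1.87 for PDIL1-1 (SE 0.09, adjusted p = 2.9e-08), -1.86 for PDIL2-2 (SE 0.12, adjusted p = 3.1e-07) and -1.64 for PDIL2-3 (SE 0.09, adjusted p = 7.3e-08). PDIL1-4 changed least of the 9 on both scales, at 173, 204 and 204 RPKM in the complemented line, against 313, 328 and 329 RPKM in EM1084 (log2 fold change -0.74 as deposited and -0.31 under scaling). ERO1, the oxidase that recharges the isomerases, fell to 33.5, 32.3 and 33.5 RPKM in the complemented line, against 82.4, 90.3 and 87.8 RPKM in EM1084 (log2 fold change -1.36, SE 0.08, adjusted p = 1.7e-07).

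All 7 tested genes of ER stress sensing and quality control were lower too, with medians of -1.12 as deposited and -0.70 under scaling. The largest change was that of bZIP50 (BZIP50), the target of IRE1 splicing, which had 23.8, 30.7 and 35.9 RPKM in the complemented line, against 141, 135 and 174 RPKM in EM1084 and 42.3, 39.6 and 38.8 RPKM in WT (log2 fold change -2.29, SE 0.15, adjusted p = 4.5e-07). IRE1, the kinase and ribonuclease of the ER membrane, had 2.30, 1.56 and 2.16 RPKM in the complemented line, from 131, 91 and 116 reads, against 6.41, 6.73 and 6.95 RPKM in EM1084, from 259, 322 and 343 reads (log2 fold change -1.36, SE 0.14, adjusted p = 7.8e-06). The spliced and unspliced forms of BZIP50 are not separated in the table. The membrane-held factor BZIP60 was at 22, 23.4 and 23.4 RPKM in the complemented line, against 49.3, 49.3 and 50.4 RPKM in EM1084.

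Among quality control genes, the BiP co-chaperone ERDJ3B had 58.8, 74.8 and 79.3 RPKM in the complemented line, against 161, 155 and 184 RPKM in EM1084 and 139, 139 and 126 RPKM in WT. DER1, a derlin of the pathway that returns misfolded proteins to the cytosol, was at 33.3, 41.3 and 35.5 RPKM in the complemented line, against 84.1, 84.1 and 74.5 RPKM in EM1084. Both were more than 2-fold lower in mean RPKM, 2.35-fold for ERDJ3B and 2.20-fold for DER1. HRD3, an adaptor of the ubiquitin ligase in the same pathway, and BZIP39, another membrane-held factor, changed least (log2 fold changes -0.64 and -0.80 as deposited, -0.22 and -0.41 under scaling). Their calls under scaling were marginal (adjusted p = 0.038 and 0.042). HRD3 lost it when any of 5 libraries was left out (each EM1084 library and complemented 2 and 3), and BZIP39 when any of 4 was (EM1084 1 and 3, complemented 2 and 3).

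**Figure D3:**
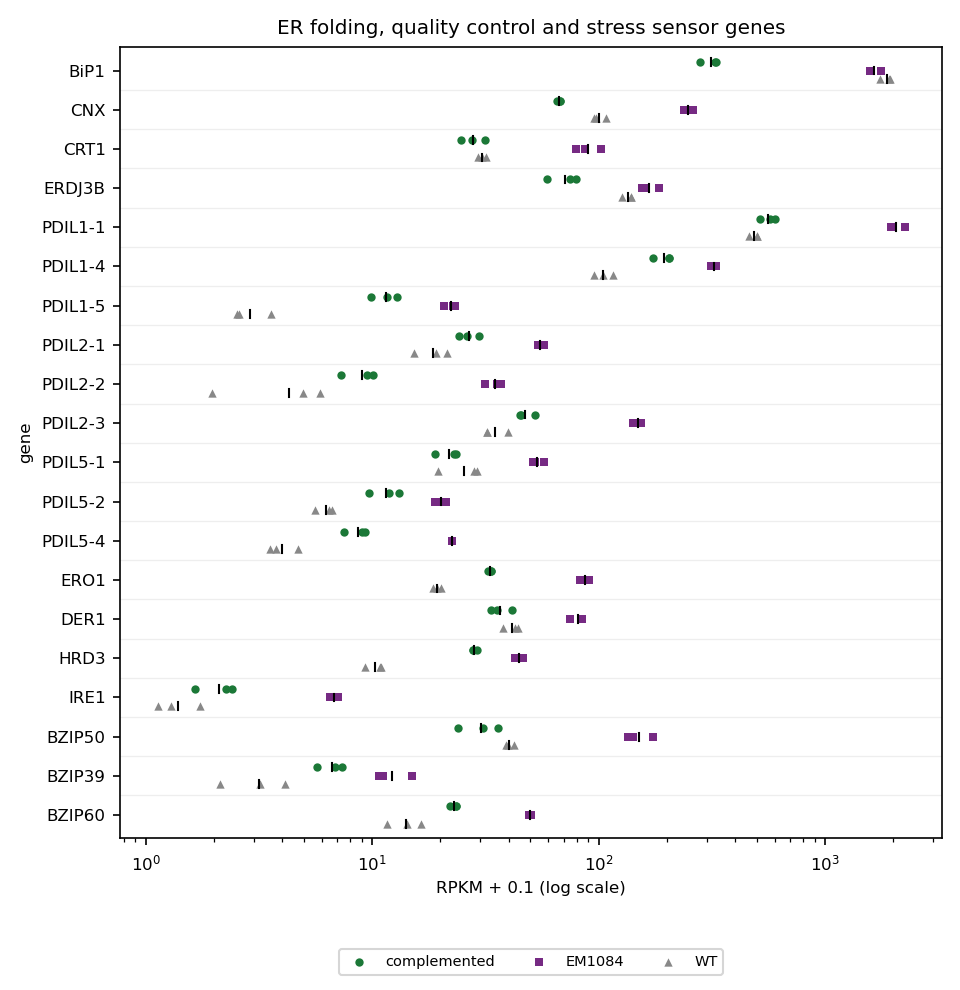
RPKM (plus 0.1, log axis) of ER folding, quality control and stress sensor genes in each library, with green circles for the complemented line, purple squares for EM1084, grey triangles for WT, and black ticks at the means of 3 libraries. The complemented line lies left of EM1084 at each of the 20 genes, and at BiP1 the WT values, 1745 to 1939 RPKM, lie close to those of EM1084.

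Small RNA pathway genes split into a few that were many times lower in the complemented line and a majority that was not called on both scales. Argonaute proteins (AGO) carry small RNAs to their targets, Dicer-like proteins (DCL) cut them from double-stranded RNA, and RNA-dependent RNA polymerases (RDR) make that double-stranded RNA. Of 16 loci, 12 were tested, 0 were higher and 4 lower (33.3%, against 23.7% of all tested loci), with medians of -0.37 as deposited and -0.09 under scaling, near those of all loci. AGO18, a grass-specific Argonaute known for its part in antiviral defence in rice, had 0.219, 0.582 and 0.199 RPKM in the complemented line, from 14, 38 and 12 reads, against 12.7, 14.1 and 12.1 RPKM in EM1084, from 575, 756 and 671 reads. DCL2A, which makes small RNAs from viral and repeat-derived RNA in plants, had 0.708, 1.2 and 0.95 RPKM in the complemented line, from 64, 111 and 81 reads, against 14.2, 12.5 and 12.9 RPKM in EM1084, from 912, 952 and 1011 reads. AGO2, another Argonaute linked to antiviral defence, had 0.637, 0.842 and 0.912 RPKM in the complemented line, from 40, 54 and 54 reads, against 6.42, 7.43 and 5.74 RPKM in EM1084, from 286, 392 and 312 reads.

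The complemented and EM1084 libraries were widely separated at these 3 genes, and the 3 WT libraries were low as well, at 0.0536, 0.306 and 0.0978 RPKM for AGO18, 0.246, 0.345 and 0.415 RPKM for DCL2A and 0.136, 0.249 and 0.299 RPKM for AGO2. Mean RPKM as deposited was 38.9-fold lower in the complemented line for AGO18, 13.9-fold for DCL2A and 8.19-fold for AGO2. The log2 fold changes on log2(RPKM + 1), which understate the change of such low genes, were -3.40 (SE 0.15, adjusted p = 1.2e-08), -2.87 (SE 0.14, adjusted p = 2.2e-08) and -2.06 (SE 0.14, adjusted p = 4.4e-07) in that order of genes. DCL2A has a close copy, DCL2B, not analysed here, and how reads were divided between them is not given. AGO3, next to AGO2 on chromosome 4, was under the level limit, with 1, 0 and 0 reads in the complemented line and 9, 12 and 14 reads in EM1084.

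AGO1A and AGO4A, 2 Argonautes of the general microRNA and silencing pathways, gave a different picture. AGO1A, a slicer of microRNA targets, had 14.9, 15.9 and 17.5 RPKM in the complemented line, against 15.4, 17 and 14.9 RPKM in EM1084. AGO4A, which guides DNA methylation, had 26.8, 27.1 and 33.3 RPKM in the complemented line, against 25.4, 30.5 and 29.9 RPKM in EM1084. Their groups overlapped, and both missed the threshold as deposited (adjusted p = 0.80 and 0.88) while median-of-ratios scaling put both 0.44 higher on the log2 scale (adjusted p = 0.0019 and 0.0036). RDR2 was 1.89-fold lower in mean RPKM, but its call under scaling (adjusted p = 0.034) was lost when any of the 6 libraries was left out.

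**Figure D4:**
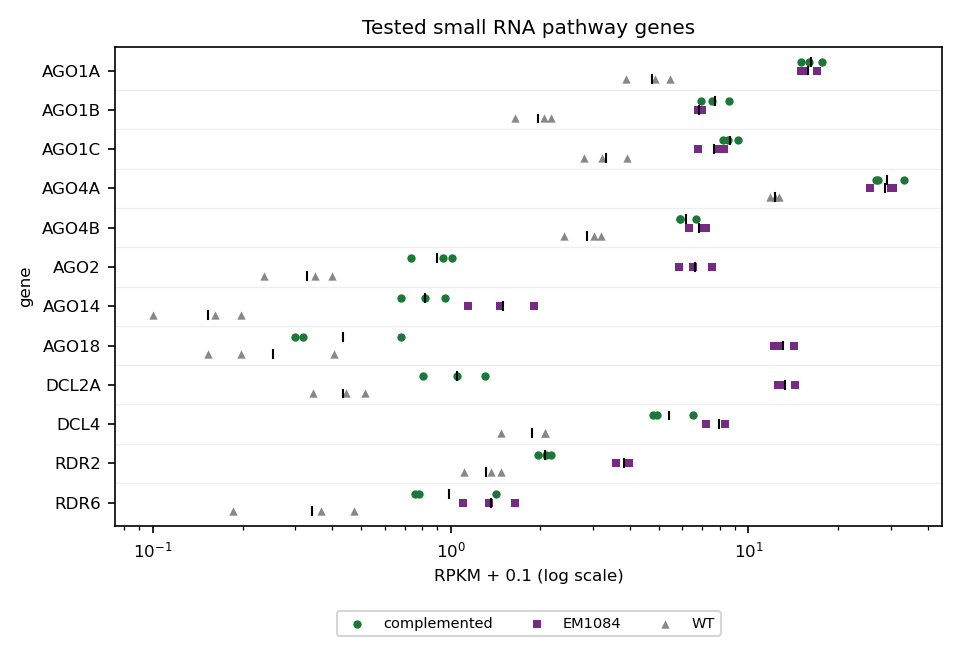
RPKM (plus 0.1, log axis) of the 12 tested small RNA pathway genes in each library, with green circles for the complemented line, purple squares for EM1084, grey triangles for WT, and black ticks at the means. AGO2, AGO18 and DCL2A have EM1084 values between 5.74 and 14.2 RPKM and complemented values of at most 1.2 RPKM, while AGO1A and AGO4A overlap between these lines.

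The starch synthesis genes that could be named were mostly higher in the complemented line, at 7 of 12 tested loci with 1 lower and 4 not called. Medians were 0.46 as deposited and 0.89 under scaling, and under quantile normalization 7 were higher and 3 lower. Many other starch loci had no matching name and are left out, so the counts cover only part of the pathway. AGPL1, a large subunit of the ADP-glucose pyrophosphorylase that makes the sugar donor of starch, had 78.4, 90.1 and 101 RPKM in the complemented line, against 19.4, 18 and 19.8 RPKM in EM1084 and 70.2, 76.6 and 73.1 RPKM in WT. The debranching enzyme gene ISA1 had 476, 457 and 481 RPKM in the complemented line, against 204, 205 and 192 RPKM in EM1084 and 176, 173 and 149 RPKM in WT. DPE1, the plastid disproportionating enzyme that recycles short glucans, was at 9.17, 10.5 and 10.5 RPKM in the complemented line, against 4.29, 4.09 and 4.33 RPKM in EM1084. In RPKM as deposited, AGPL1 thus lay above each WT library while being 4.71-fold above EM1084, and ISA1 lay above both other genotypes. The log2 fold changes against EM1084 were 2.17 (SE 0.10, adjusted p = 2.7e-08) for AGPL1 and 1.23 (SE 0.08, adjusted p = 2.1e-07) for ISA1. Whether the small lead of AGPL1 over WT holds under scaling was not tested. The branching enzyme BEI was 2.03-fold higher and GBSS1, which makes amylose, 1.38-fold higher. The small subunit AGPS2, the most abundant of the list, was not called as deposited, with 2387, 2622 and 2685 RPKM in the complemented line and 2764, 2634 and 2884 RPKM in EM1084. Only starch synthase SSI was lower, at 154, 181 and 205 RPKM in the complemented line, against 298, 275 and 280 RPKM in EM1084, and its call under scaling (adjusted p = 0.037) was lost when any library but complemented 3 was left out and at other filters on low values.

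Of 12 tested genes of sugar supply, 4 were higher (33.3%, against 10.9% of all tested loci), 3 were lower (25%, close to the 23.7% of all tested loci) and 5 were not called. The sugar exporter SWEET11 had 86.9, 86.4 and 87.5 RPKM in the complemented line, against 52.9, 61.5 and 60.0 RPKM in EM1084 and 6.46, 5.71 and 7.38 RPKM in WT. SUT4, a sucrose transporter, had 2.98, 2.96 and 3.23 RPKM in the complemented line, against 7.26, 7.71 and 9.20 RPKM in EM1084. The sucrose synthase gene SUS1 averaged 8.58 ± 0.314 RPKM in the complemented line, against 19.0 ± 0.504 RPKM in EM1084 (SD, n = 3 each). SWEET11 was 1.49-fold higher in the complemented line, SUT4 2.64-fold lower and SUS1 2.21-fold lower. Among cytosolic glutamine synthetases, which load nitrogen for transport and storage, GLN1-3 was higher at 111, 134 and 140 RPKM in the complemented line, against 62.6, 60.0 and 63.2 RPKM in EM1084 and 56.0, 65.4 and 45.5 RPKM in WT (log2 fold change 1.03, SE 0.10, adjusted p = 5.9e-06).

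Markers of embryo, aleurone and late maturation moved unevenly. Of 5 tested LEA and dehydrin genes, whose products protect drying seeds, 4 were higher and 0 lower, with medians of 0.56 as deposited and 0.99 under scaling. RAB16B, an abscisic acid-induced dehydrin gene, had 17.0, 15.8 and 14.8 RPKM in the complemented line, against 3.17, 4.27 and 4.57 RPKM in EM1084 and 248, 254 and 205 RPKM in WT (log2 fold change 1.76, SE 0.13, adjusted p = 7.2e-07). EMP1 had 144, 117 and 125 RPKM in the complemented line, against 86.6, 80.2 and 94.7 RPKM in EM1084 and 510, 486 and 503 RPKM in WT. RAB16B and EMP1 were thus higher than in EM1084 but remained far under WT, whereas LEA19 exceeded WT, at 107, 107 and 105 RPKM in the complemented line, against 70.0, 68.8 and 86.0 RPKM in EM1084 and 47.1, 57.0 and 52.3 RPKM in WT. OLE18, the oleosin of embryo and aleurone oil bodies, did not pass, with 704, 961 and 964 RPKM in the complemented line, against 904, 982 and 1071 RPKM in EM1084 and 64.3, 69.7 and 65.4 RPKM in WT (adjusted p = 0.23 as deposited and 0.063 under scaling). Of 4 tested cell division genes 0 were called on both scales in either direction, and of 2 tested green tissue genes 0 were. The part that seed age or tissue makeup has in these differences was not tested.

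Of 8 heat shock factor genes, all tested, 4 were higher and 2 lower (25%, close to the 23.7% of all tested loci). HSFA2A had 1.66, 1.22 and 1.39 RPKM in the complemented line, from 96, 72 and 76 reads, against 0.0976, 0.0412 and 0.0799 RPKM in EM1084, from 4, 2 and 4 reads, a 19.5-fold difference in mean RPKM at low level (log2 fold change 1.17, SE 0.15, adjusted p = 4.4e-05). The B-class factors HSFB1 and HSFB2C were 2.26-fold and 1.75-fold lower. Among small heat shock proteins, 5 of 8 tested were higher, among them HSP24.1, and 1 was lower, HSP23.2. HSP23.2 had 0.705, 0.690 and 0.498 RPKM in the complemented line, against 1.99, 2.03 and 2.92 RPKM in EM1084, and was listed at 0 in each WT library. Of the 4 cytosolic HSP90 and HSP101 genes, HSP101, the disaggregase, was higher at 10.8, 11.1 and 10.9 RPKM in the complemented line, against 5.84, 7.13 and 6.80 RPKM in EM1084, and 0 were lower. The HSP90 genes HSP81-2 and HSP81-3 were lower as deposited and not called under scaling, and without EM1084 2 the count of lower members was 1. The list's share of reads in listed loci was 0.132% ± 0.00353 in the complemented line and 0.197% ± 0.0280 in EM1084 (SD, n = 3, exact permutation p = 0.1).

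Fermentation genes, which sustain glycolysis where oxygen is short, were lower at 3 of 4 tested loci. ADH1, alcohol dehydrogenase, had 35.4, 37.8 and 35.9 RPKM in the complemented line, against 62.8, 72.5 and 74.5 RPKM in EM1084 and 6.95, 9.18 and 8.11 RPKM in WT. ADH2 was 2.04-fold lower and PDC2, pyruvate decarboxylase, 1.66-fold lower, while the scarce PDC1 was higher at 1.37, 1.55 and 1.03 RPKM, against 0.301, 0.326 and 0.0704 RPKM in EM1084. The PDC2 call under scaling (adjusted p = 0.019) was lost without EM1084 3 and without complemented 2. Of 10 tested antioxidant genes, 3 were higher and 3 lower (30.0% each, against 10.9% and 23.7% of all tested loci). Of the ascorbate peroxidases, which remove hydrogen peroxide, the plastid form APX7 was 3.12-fold lower at 4.61, 5.18 and 5.90 RPKM, against 18.4, 15.3 and 15.2 RPKM in EM1084, and the peroxisomal APX3 was 4.14-fold lower. The cytosolic APX2 was 1.4-fold higher, and the catalase gene CATB had 49.2, 48.9 and 57.6 RPKM in the complemented line, against 32.5, 34.2 and 33.5 RPKM in EM1084.

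TIP4-1, an aquaporin of the vacuole membrane, had 1.78, 1.91 and 2.19 RPKM in the complemented line, against 11.2, 9.92 and 9.16 RPKM in EM1084 and 0.744, 0.919 and 0.679 RPKM in WT (log2 fold change -1.90, SE 0.13, adjusted p = 3.2e-07). It was the 1 lower member among 8 tested aquaporins (12.5%, against 23.7% of all tested loci). The 3 higher members (37.5%, against 10.9%) were plasma membrane channels, led in level by PIP2-1 with 317, 286 and 275 RPKM in the complemented line, against 188, 212 and 196 RPKM in EM1084. Defence genes were mostly too low to test, with 6 of 17 loci tested, of which 2 were higher and 1 lower (33.3% and 16.7%, against 10.9% and 23.7% of all tested loci). WRKY62, a WRKY factor that restrains defence in rice, had 4.85, 3.08 and 3.94 RPKM in the complemented line, from 128, 83 and 98 reads, against 0.534, 0.676 and 0.350 RPKM in EM1084, from 10, 15 and 8 reads. WRKY51 was 2.75-fold lower, at 1.72, 2.18 and 2.50 RPKM in the complemented line, against 5.29, 5.68 and 6.61 RPKM in EM1084.

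Of 7 tested jasmonate and ethylene genes 2 were higher (28.6%, against 10.9% of all tested loci) and 0 lower. The 2 were OPR1, an oxophytodienoate reductase, at 12.1, 13.8 and 10.3 RPKM in the complemented line, against 5.06, 4.72 and 4.76 RPKM in EM1084, and TIFY11D, a jasmonate repressor, which was 2.15-fold higher. Of 7 tested gibberellin and abscisic acid genes 2 were likewise higher and 0 lower, and without EM1084 2 the count of higher members was 1. Stress transcription factors divided within a closely spaced pair on chromosome 9. DREB1A was 4.29-fold higher, at 1.82, 2.88 and 2.08 RPKM in the complemented line, against 0.264, 0.780 and 0.540 RPKM in EM1084, and DREB1B was 4.05-fold lower, at 0.226, 0.662 and 0.359 RPKM, against 1.27, 2.35 and 1.43 RPKM. Over the 6 tested members, 2 were higher and 1 lower (33.3% and 16.7%).

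Genes often used to normalise expression were not all constant between these lines. All 5 tested were lower in the complemented line as deposited, a scale on which 49.5% of all tested loci were lower. Under scaling 3 of them (UBQ5, ACT1 and GAPC2) were lower too (60.0%, against 23.7% of all tested loci). The list median was -0.70 as deposited and -0.27 under scaling. GAPC2, a glycolytic dehydrogenase, had 66.6, 77.5 and 83 RPKM in the complemented line, against 147, 139 and 152 RPKM in EM1084 and 28.5, 24.2 and 25.4 RPKM in WT (log2 fold change -0.94, SE 0.10, adjusted p = 9.5e-06). The ACT1 call under scaling (adjusted p = 0.035) was lost without EM1084 1 or 3 and without complemented 1 or 2, and the UBQ5 call (adjusted p = 0.017) without EM1084 2 and without complemented 3. Of the shorter lists, splicing and exon junction genes had 1 of 5 tested members higher and 0 lower, phytate and lipid genes 1 of 3 and 0, and nitrogen genes 2 of 4 and 0. Without EM1084 1 the count of higher nitrogen genes was 1. Neither the 2 tested metallothionein genes nor the 2 tested genes of DNA methylation and Polycomb were called on both scales, and the 1 tested alpha-amylase gene was lower, a call lost without EM1084 1 or complemented 1.

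**Figure D5:**
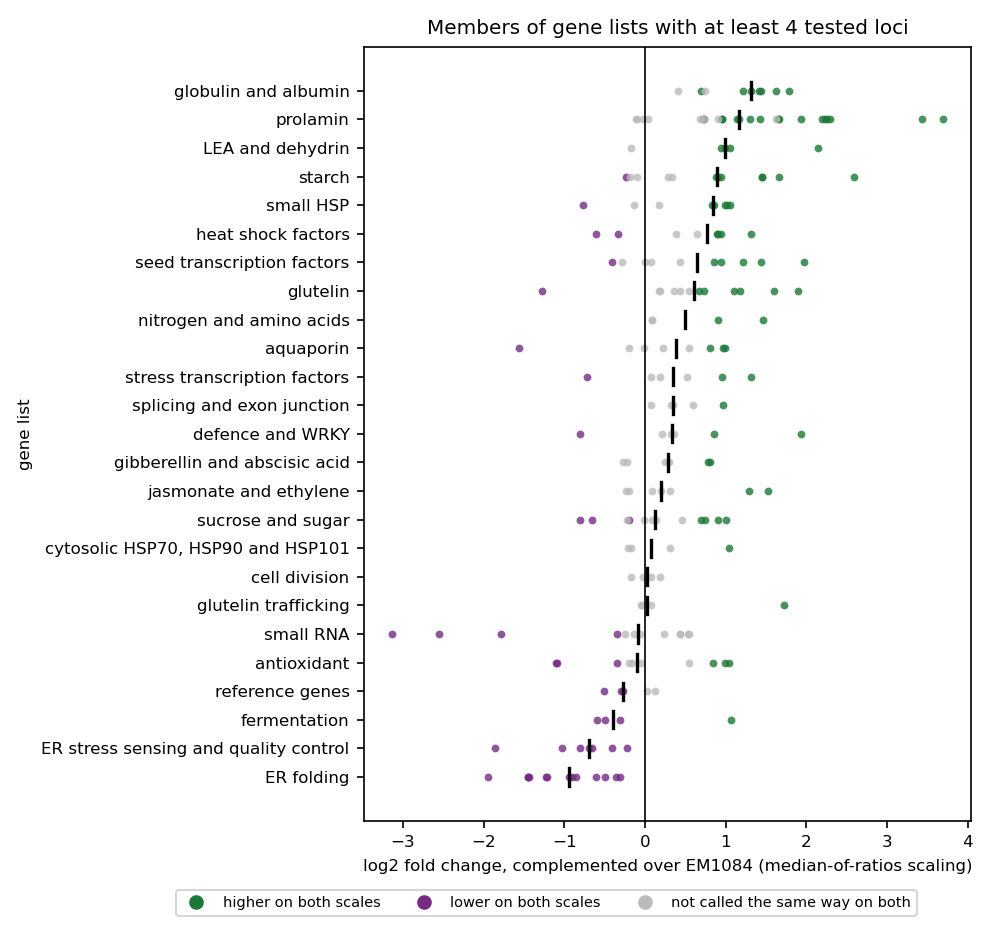
Log2 fold change of each tested member (points, complemented over EM1084, median-of-ratios scaling) for gene lists with at least 4 tested loci, ordered by the list median (black tick). Green points were higher and purple points lower on both scales, and grey points were not called the same way on both. ER folding has the lowest median, at -0.94, and globulins with albumins the highest, at 1.32.

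The largest differences lay outside the lists, at loci detected in 1 of the lines and at or near 0 in the other. LOC_Os01g72900 (chromosome 1, 42281272 to 42281973) had 1.75, 2.66 and 1.65 RPKM in the complemented line, against 313, 385 and 375 RPKM in EM1084 and 0.996, 1.89 and 0 RPKM in WT. Its neighbour LOC_Os01g72910 (42282832 to 42283632), on the opposite strand, had 2.15, 1.78 and 1.23 RPKM in the complemented line, against 285, 366 and 288 RPKM in EM1084. These adjacent loci were 177-fold and 182-fold lower in mean RPKM, with the WT libraries at the complemented level. In the other direction, LOC_Os07g06834 (chromosome 7, 3339384 to 3340631) had 3260 reads in the complemented libraries and 2 in the EM1084 libraries, a ratio of 1328 per mapped read (95% exact interval 367 to 10970). LOC_Os03g02470 (chromosome 3, 887171 to 889518) had 2720 reads in the complemented libraries and 0 in EM1084, at least 739-fold higher when 3 reads over the EM1084 group are taken as the floor. Both loci were at 0 in all WT libraries, and intervals and floors cover counting error only.

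In all, 18 tested loci were at 0 in every EM1084 library, with complemented means of up to 30.6 RPKM (median 3.23), and 11 of them were at 0 in every WT library too. The reverse held for 16 loci, at 0 in every complemented library with EM1084 means of up to 5.27 RPKM (median 2.09), of which 11 were also at 0 in WT. Of the 178 loci at least 4-fold lower on both scales, 20 (11.2%) had an adjacent tested locus that was at least 4-fold lower as well, and of the 91 loci at least 4-fold higher, 2 (2.20%) had such a neighbour, whereas 2.31% of all tested loci had an adjacent locus of the lower set and 1.18% had one of the higher set. The longest run was 4 adjacent tested loci on chromosome 11 (6872037 to 6927549 in the table's coordinates), with means between 0.208 and 2.22 RPKM in the complemented line, between 9.75 and 25.9 RPKM in EM1084 and between 0 and 1.62 RPKM in WT.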

How the data were processed

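RPKM values were computed by the authors and are used as deposited, for 31263 loci in 9 libraries (3 of each genotype). Total RNA was made into libraries by ScriptSeq v2, per the labels' protocols. The sources used here do not give the aligner, counter, build or annotation. RPKM steps gave whole reads for all 281367 values within 0.001 of a read, and these serve only for depths, read shares and an alternative fit. In a simulated table the derivation recovered 9 of 9 library totals and 99.3% of read numbers. Values were transformed to log2(RPKM + 1) and the 6 libraries of the complemented line and EM1084 fitted with limma 3.58.1 (trend, robust) in R 4.3.3, as deposited and after median-of-ratios scaling (size factors 0.812, 0.876 and 0.914 in the complemented line, 1.16, 1.17 and 1.18 in EM1084). Tests were two-sided with Benjamini-Hochberg adjustment over the 15212 tested loci and a threshold of 0.05. On simulated data for this comparison, 93 of 100 loci changed 2-fold and 100 of 100 changed 4-fold were recovered over 15212 loci, with 18 false calls. The changed loci were few, were not taken from the lowest in reads, and were raised as often as lowered. Spread between libraries was fixed and the other loci were not shifted. The simulation therefore cannot give the false calls of the real comparison, where the median locus was shifted as deposited. List read shares were compared by exact permutation over 20 splits.

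The members and the gene lists were chosen with earlier results of these data known. The table holds no gene names. Of 269 loci kept in 32 lists, 225 carry a name that RefSeq gives to a gene on the same chromosome, of a span within 25% and in the same order; 15 follow an earlier description of these data; 29 storage family members follow general knowledge of the rice literature. Another 149 listed loci had no matching name and are not reported here. Named genes are OsTudor-SN, up to 4 members per list with the smallest adjusted p among those called on both scales with groups apart, the 2 highest in level, and up to 2 loci in each direction outside the lists; some chosen loci are not printed, and further members were named after their values were seen. The alternatives tried were other scalings, pseudocounts, filters and fits, all 9 libraries, a replicate block and leaving out each library.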

Additional observations from a re-analysis of the deposited data

How the results depend on the processing

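The split between higher and lower loci depended on scaling. On RPKM as deposited 1651 loci were higher and 7529 lower, against 3634 and 3610 under median-of-ratios scaling and 3641 and 3613 under quantile normalization. With a stricter minimum of 5 RPKM, 1035 loci were higher as deposited, of fewer loci tested (8807). No other alternative moved a count of called loci by over 1.5 times. Leaving out each of the 6 libraries gave between 1476 and 1730 higher and between 6800 and 7403 lower loci as deposited, and between 3175 and 3492 higher and between 3122 and 3528 lower under scaling. OsTudor-SN stayed higher under each alternative (log2 fold change between 0.74 and 0.82 as deposited when each library was left out). Of 75 loci named above besides OsTudor-SN, RAG1 and alpha-globulin and called on both scales, 65 kept both calls under each alternative run. The exceptions were HRD3, BZIP39, PDC2, HSFB2C, LOC_Os05g26386, UBQ5, ACT1, RDR2, SSI and DREB1B, and the cause was not tested. HSFB2C and DREB1B lost theirs only when all 9 libraries were fitted. Median-of-ratios scaling reversed GluA3 (log2 fold change 0.18) and AGPS2 (0.33), which were below 0 as deposited, and quantile normalization brought RAB5A to 0.00. The replicate numbers did not pair the libraries (correlations of deviations 0.00988, -0.0264 and 0.0602 for numbers 1, 2 and 3); a fit with the replicate block called 1683 higher and 7594 lower as deposited and 3586 and 3529 under scaling. Low loci are limited by depth, 1 read per kilobase being worth up to 0.0781 RPKM in EM1084. An independent transgenic line was not analysed here.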
